A study of Mus musculus with 6 samples.

Results

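The IL-1 and IL-18 receptor family was followed in activated CD8+ T cells through 10 genes of the deposited count table, which holds 16281 genes. The members were chosen by name, each as the row whose gene symbol equals a listed symbol, and all 10 had a row. They are the IL-1 receptors Il1r1 and Il1r2, the IL-36 receptor Il1rl2, the IL-33 receptor Il1rl1 (also called ST2), the IL-18 receptor chains Il18r1 and Il18rap, the shared accessory chain Il1rap, the adaptor Myd88, and the kinase family members Irak2 and Irak3. Poly(A)+ RNA was sequenced from CD8+ T cells of spleens of OT1 mice, C57BL/6 animals with the transgene Tg(TcraTcrb)1100Mjb, which gives nearly all CD8+ T cells a T-cell receptor for an ovalbumin peptide. The cells were activated for 48 h with anti-CD3 and anti-CD28 antibodies plus IL-2 and expanded in IL-2 for 3 days, so that RNA was taken on day 5. The 3 GSK cultures received GSK2879552, an irreversible inhibitor of the histone demethylase LSD1, at 0.5 μM throughout, and the 3 Veh cultures received vehicle. The cultures came from 3 separate mice, whose age is not given for this experiment. No cytokine of the IL-1 family is named among the additions in either group, and a single dose and day were measured.

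Receptors of this family are built as pairs. A ligand-binding chain meets its cytokine (IL-1, IL-18, IL-33 or IL-36) and then recruits an accessory chain, and the intracellular domains of the pair gather the adaptor MyD88 with kinases of the IRAK family, which pass the signal on to TRAF6 and NF-κB. In CD8+ T cells, IL-18 acts together with IL-12 to induce interferon-γ without a T-cell receptor signal, and IL-33 acts as an alarmin that supports effector differentiation. IL1R2 is a decoy that binds IL-1 without signalling, and IRAK3 is an inhibitory member of the kinase family.

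The depth was even, with total counts from 18288447 to 19846720 per sample. Levels are given as CPM, the usual scaling of the reads of a gene to the size of its library, here after TMM adjustment of that size. A difference is given as log2FC, the log2 of the fold of GSK over Veh, with its standard error (SE). The p-values come from the quasi-likelihood test of edgeR and were adjusted by the Benjamini-Hochberg method over all 11698 genes tested. To be called, a gene had to differ by more than 1.5-fold with an adjusted p below 0.05. RNA for CD8 T cells was abundant in every culture, with Cd3e, Cd3g, Cd8a and Cd8b1 together between 1450 and 1673 CPM. Kdm1a, which encodes LSD1, the protein the drug blocks, averaged 92.8 ± 5.45 CPM in the Veh cultures and 87.1 ± 3.54 CPM in the GSK cultures (SD, n = 3; log2FC -0.09, adjusted p = 0.22). Since the drug acts on the protein, this level does not check the labels.

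Of the 10 members, 8 had enough counts to be tested and 2, Il1r1 and Irak3, did not. The test called 1 member higher in GSK, Il1rl1, and 1 lower, Irak2, while 2.22% of all tested genes were called higher and 4.09% lower. Without the fold criterion, 2 members were higher (Il1rl1 and Myd88) and 1 was lower (Irak2). Together these are 37.5% of the 8 tested members, beside 32.1% of all tested genes, so the share of members that differed was near that of genes at large. For 4 members, Il1rl1, Il1rl2, Myd88 and Irak2, all GSK cultures lay on one side of all Veh cultures, as they did for 46.7% of all tested genes. The median log2FC was 0.08 over the 8 tested members and -0.0039 over all tested genes. In RNA from whole cultures, fewer cells that carry a transcript and less of it per cell cannot be told apart.

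**Figure D1:**
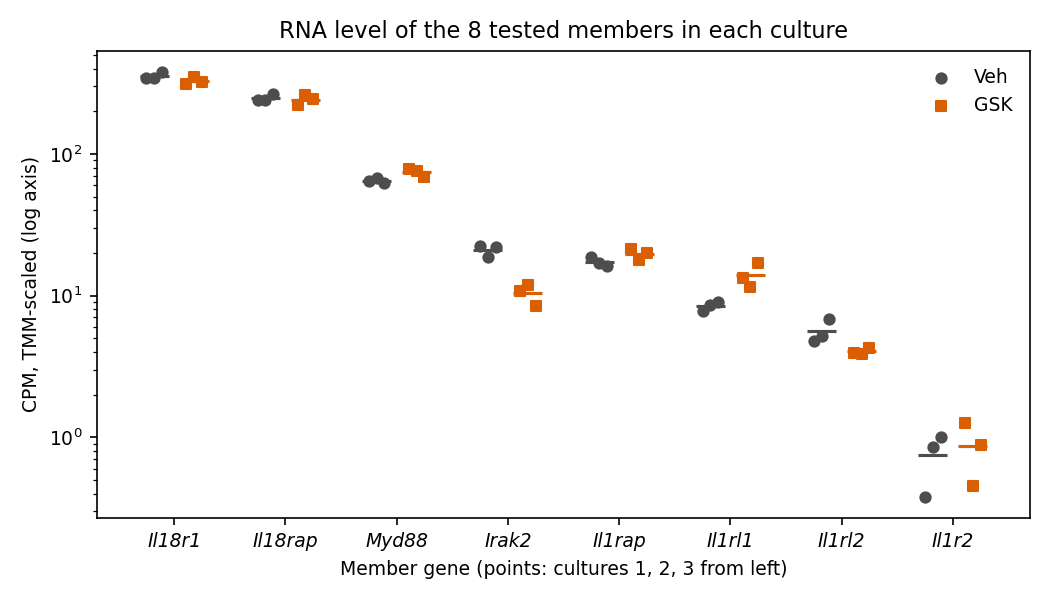
RNA level of each tested member in CPM on a log axis, with circles for the 3 Veh cultures, squares for the 3 GSK cultures and bars at the group means. Il18r1 and Il18rap lie above 200 CPM in all cultures with intermixed groups, while the GSK squares lie above the Veh circles for Il1rl1 and below them for Irak2.

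Il1rl1 encodes ST2, the ligand-binding chain for IL-33. It was the member that rose past both thresholds. Its level was 7.83, 8.64 and 9.04 CPM in Veh cultures 1, 2 and 3 and 13.4, 11.5 and 17.0 CPM in GSK cultures 1, 2 and 3. The lowest GSK culture, number 2, stood above the highest Veh culture, and the GSK cultures spread more widely than the Veh cultures. The means were 8.50 ± 0.614 CPM in Veh and 14.0 ± 2.78 CPM in GSK (SD, n = 3), a log2FC of 0.72 (SE 0.14, adjusted p = 0.0023). The 95% confidence interval reached from 0.41 to 1.02, so the change may be smaller than 1.5-fold. Without GSK replicate 3, the culture with the highest level, the log2FC was 0.55 (adjusted p = 0.0085) and the gene was no longer past the fold change of 1.5. A test of the fold change against 1.5 did not call it either (adjusted p = 1.0). The gene has a long membrane-bound transcript and a short one for a soluble decoy form of ST2. Counts per gene add these together, so the form that rose is not resolved here.

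In GRCm38, Il1rl1 (Entrez 17082) spans bases 40404864 to 40465418 of chromosome 1 on the plus strand, where no other annotated gene overlaps it. Irak2 (Entrez 108960) spans bases 113638467 to 113695026 of chromosome 6, also on the plus strand. Since these are the members called in opposite directions, the 250 bases before a RefSeq start of each are shown, 5′ to 3′, from the GRCm38.p6 build. The Il1rl1 window is chr1:40429320-40429569 and the Irak2 window chr6:113638217-113638466, both on the plus strand. The Il1rl1 window lies inside the gene span given above, whereas the Irak2 window ends just before its span. The stretch before the Il1rl1 span was not searched. Capitals mark a GATA motif (AGATAA) in the Il1rl1 window, and the Irak2 window has none.
Il1rl1: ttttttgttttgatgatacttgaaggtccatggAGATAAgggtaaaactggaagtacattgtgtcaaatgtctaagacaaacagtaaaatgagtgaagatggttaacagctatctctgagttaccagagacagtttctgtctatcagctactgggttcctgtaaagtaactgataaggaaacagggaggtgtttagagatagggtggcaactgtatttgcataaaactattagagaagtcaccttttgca
Irak2: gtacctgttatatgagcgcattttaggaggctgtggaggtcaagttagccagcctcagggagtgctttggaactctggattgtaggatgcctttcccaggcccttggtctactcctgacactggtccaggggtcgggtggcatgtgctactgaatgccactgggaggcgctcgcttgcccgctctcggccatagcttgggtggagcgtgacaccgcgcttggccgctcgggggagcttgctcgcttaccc
The Il1rl1 stretch is AT-rich, with 37.6% G and C and 0 CpG pairs, and the Irak2 stretch has 60.0% G and C and 12 CpG pairs. The medians over the 32851 RefSeq starts are 52.4% and 6 pairs. Both strands were searched for 7 motifs. These were the GATA motif, the T-box motif with the letters GGTGTGA, the GAS motif bound by STAT factors with the letters TTCNNNGAA, the GFI1 core with the letters AAATCA, the AP-1 motif with the letters TGANTCA, the RUNX motif with the letters TGTGGT, and the NF-κB motif. With these letters, the search found only the GATA motif AGATAA before this Il1rl1 start, 217 bases upstream, and 0 of the 7 motifs before Irak2. Other spellings of a GATA site were not searched, and the Il1rl1 window also holds TGATAA, which is not in capitals. The letters AGATAA occur before 9.99% of all starts, and the NF-κB motif before 45.8%. A further Il1rl1 start in the same table holds 1 GATA, 1 GFI1 core and 1 RUNX match and is not shown because an annotated untranslated exon overlaps it. RNA of Gata3, a factor that binds GATA sites, fell from 38.6 ± 3.19 to 20.7 ± 2.90 CPM (SD, n = 3; log2FC -0.90, adjusted p = 6.0e-05). A match of letters is a description and not a site of binding, and the absence of one says only that these letters are not in the window.

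Other cells that carry ST2 were looked for through their markers. Of 6 mast cell and basophil markers, 3 (Mcpt4, Fcer1a and Ms4a2) had no row in the table and Cpa3 reached at most 5 counts in any culture. The summed level of this list, nearly all of it Kit, was 5.38 to 6.54 CPM in Veh and 3.49 to 5.72 CPM in GSK. The summed level of 5 markers of type 2 innate lymphoid cells was 0.158 to 0.653 CPM in Veh and 0.105 to 0.469 CPM in GSK. Foxp3, the factor that defines regulatory T cells, measured 4.24, 3.86 and 1.68 CPM in Veh and 4.99, 2.88 and 2.76 CPM in GSK (adjusted p = 0.82). Cd4 was at 0.472 to 1.79 CPM over all cultures. Kit (adjusted p = 0.072), Foxp3 and Cd4 did not pass, whereas Ikzf2, on the list of CD4 and regulatory T cells but also expressed by activated CD8 T cells, was called lower (log2FC -0.71, adjusted p = 3.7e-04). The summed level of that list was 68.5 to 82.0 CPM in Veh and 57.9 to 59.4 CPM in GSK. The CD8 T cell list summed to 1596 to 1673 CPM in the Veh cultures and to 1450 to 1544 CPM in the GSK cultures, and Cd3e and Cd3g of its 4 genes were lower at the adjusted p. The NK cell list summed to 330 to 357 CPM in the Veh cultures and to 603 to 638 CPM in the GSK cultures through Eomes and Klrk1, which CD8 T cells also express, while the NK receptor Ncr1 had 1 read in all 6 cultures together. B cell markers summed to at most 7.94 CPM, myeloid markers to at most 4.57 CPM and dendritic cell markers to at most 1.21 CPM in any culture. Only Cd79b, Itgam, Lyz2 and Zbtb46 of these lists were tested, and none passed. Cd79b (adjusted p = 0.070) and Itgam (0.073) were lower in GSK without overlap, while Lyz2 and Zbtb46 overlapped. Untested Ms4a1 had 0, 2 and 2 reads in Veh and 4, 6 and 8 in GSK. Cd79a, also untested, had 3, 1 and 0 reads in Veh and 5, 11 and 5 in GSK. What part any of these cells had in the reads of the members was not tested.

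Per kilobase of exon, the chains of the IL-18 receptor had the highest RNA levels of the members. Il18r1, the ligand-binding chain, was at 344, 345 and 379 CPM in Veh cultures 1 to 3 and at 314, 351 and 320 CPM in GSK cultures 1 to 3. The groups overlapped, because GSK culture 2 stood above 2 of the 3 Veh cultures. The log2FC was -0.12 (SE 0.052, adjusted p = 0.10), with a 95% confidence interval from -0.23 to -0.0040 before adjustment. Without GSK replicate 2 it was -0.17 (adjusted p = 0.013), which passed, and without Veh replicate 3 it was -0.07 (adjusted p = 0.39).

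Il18rap, the accessory chain that completes the signalling IL-18 receptor, was at 241, 240 and 265 CPM in Veh and at 222, 258 and 246 CPM in GSK. The groups were intermixed, with a log2FC of -0.04 (SE 0.060, adjusted p = 0.65) and a 95% confidence interval from -0.17 to 0.09. For both chains the interval lies inside 1.5-fold in either direction, at 4221 to 7205 reads per culture.

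Since scaling cancels in a ratio of chains within a culture, the pairs were also compared directly. In Veh there were 0.700, 0.696 and 0.701 Il18rap reads for each Il18r1 read, and in GSK 0.706, 0.737 and 0.769. All GSK cultures were above all Veh cultures, by 0.08 on the log2 scale (exact two-sided permutation p = 0.1, the smallest that 3 against 3 allows). No difference between 3 and 3 cultures can pass 0.05 in this test, so the shift stands as a value without a call. Il1rap reads for each Il1rl1 read were 2.37, 1.97 and 1.80 in Veh and 1.59, 1.55 and 1.18 in GSK, a difference of -0.51 on the log2 scale (exact permutation p = 0.1). The third ratio compared, Il1rl1 to its neighbour Il18r1, was chosen after the values were seen and differed by 0.82 on the log2 scale, again without overlap (exact permutation p = 0.1). Adjusted over the 3 ratios, each p stayed at 0.1. Il1rap to Il1r1 could not be compared because Il1r1 had too few reads.

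The 6 receptor genes Il1r2, Il1r1, Il1rl2, Il1rl1, Il18r1 and Il18rap lie in this order within 467 kb of chromosome 1, all on the plus strand. Il18r1, from 40465552 to 40500854, starts 133 bases after the end of Il1rl1, and Il18rap, from 40515362 to 40551707, follows 14.5 kb after Il18r1. Among these neighbours Il1rl1 was higher in GSK, while Il18r1 and Il18rap had folds of 0.922 and 0.973 and Il1rl2 one of 0.720. Of the 6 listed genes that flank the cluster, 3 were tested and 1 passed, beside 32.1% of all tested genes. This was Map4k4, a kinase gene 58.4 kb before Il1r2, with a log2FC of -0.24 (SE 0.044, adjusted p = 0.0014). On the far side, the sodium-proton exchanger Slc9a2 had a log2FC of 0.27 (adjusted p = 0.47) and Mfsd9 one of -0.24 (adjusted p = 0.49), and Slc9a4, the nearest, had at most 1 read in a culture.

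**Figure D2:**
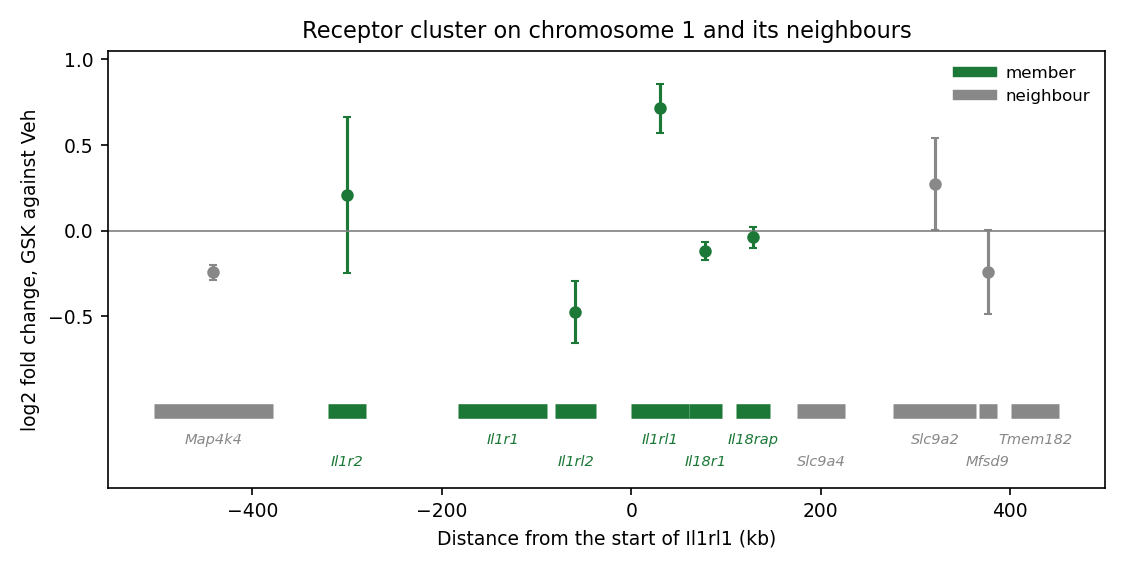
Log2 fold change of GSK against Veh with its SE for each tested gene, against the distance in kb from the start of Il1rl1 (Rfx8 lies outside the range). Bars below show the gene spans, green for members and grey for neighbours, and Il1rl1 stands at 0.72 between Il1rl2 at -0.47 and Il18r1 at -0.12.

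Il1rl2 encodes the ligand-binding chain for IL-36 cytokines. It was at 4.79, 5.15 and 6.88 CPM in Veh and at 3.94, 3.90 and 4.28 CPM in GSK, behind 75 to 131 reads per culture. All GSK cultures were below all Veh cultures, yet the difference did not pass (log2FC -0.47, SE 0.18, adjusted p = 0.060). The 95% confidence interval before adjustment, from -0.86 to -0.08, includes changes past 1.5-fold. Veh culture 3 stood above the other two, and without it the log2FC was -0.30 (adjusted p = 0.26).

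RNA for the IL-1 receptors themselves was scarce. Il1r1, the signalling IL-1 receptor, had 1, 1 and 0 reads in Veh and 0, 1 and 2 reads in GSK. It fell under the filter on low counts and was not tested, so that a difference was not detectable at this depth. Il1r2, the decoy, had 7, 16 and 19 reads in Veh and 24, 9 and 17 in GSK. The groups overlapped, and the log2FC of 0.21 had a 95% confidence interval from -0.78 to 1.19 (adjusted p = 0.76). Its sign turned when GSK replicate 1 (-0.16) or Veh replicate 1 (-0.10) was left out.

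Il1rap encodes the accessory chain that the IL-1, IL-33 and IL-36 receptors share. It was at 18.6, 17.0 and 16.3 CPM in Veh and at 21.4, 17.9 and 20.0 CPM in GSK. GSK culture 2 fell inside the Veh range, and the difference did not pass (log2FC 0.19, SE 0.093, adjusted p = 0.14, 95% confidence interval from -0.01 to 0.39). Part of its exons, 4.86%, overlaps an antisense gene, and the counting is not stated to have used strand.

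Per kilobase of exon, the order of the members in Veh was Il18r1, Il18rap, Myd88, Irak2, Il1rap, Il1rl1, Il1rl2, Il1r2, Irak3 and Il1r1. Il18r1 stood at 73.9 ± 4.11 CPM per kb and Il18rap at 36.8 ± 2.16 CPM per kb (SD, n = 3). Myd88 followed at 25.1 ± 1.18 CPM per kb and Irak2 at 4.78 ± 0.445 CPM per kb. Il1rap, at 1.52 ± 0.104 CPM per kb, and Il1rl1, at 1.23 ± 0.0891 CPM per kb, did not overlap in Veh. In GSK these neighbours overlapped, with means of 1.74 ± 0.156 CPM per kb for Il1rap and 2.03 ± 0.403 CPM per kb for Il1rl1. Il1rl2 and Il1r2 also overlapped in GSK, as did Irak3 and Il1r1. Thus RNA for the IL-18 receptor was far above that for the receptors of IL-33, IL-36 and IL-1 in both groups.

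Irak2 encodes a kinase that joins the MyD88 complex and sustains NF-κB signalling. It fell the most of the members. Its level was 22.4, 18.8 and 22.0 CPM in Veh cultures 1 to 3 and 10.8, 11.8 and 8.50 CPM in GSK cultures 1 to 3. The highest GSK culture, number 2, was well below the lowest Veh culture. The means were 21.1 ± 1.96 CPM in Veh and 10.4 ± 1.68 CPM in GSK (SD, n = 3), a log2FC of -1.03 (SE 0.12, adjusted p = 7.0e-05), with a 95% confidence interval from -1.29 to -0.76. The test of the fold change against 1.5 also called it (adjusted p = 0.029), as did each of the 7 other alternatives and each fit without one culture. Its exons share 4.44% of their bases with a predicted gene on the other strand.

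Irak3, the inhibitory kinase family member, had 2, 3 and 7 reads in Veh and 1, 10 and 5 in GSK and was not tested. The related kinases Irak1 and Irak4, which are not members, had log2FC values of -0.10 (adjusted p = 0.098) and -0.16 (adjusted p = 0.085) and did not pass. Irak1 averaged 130 ± 0.973 CPM in the Veh cultures and 122 ± 2.40 CPM in the GSK cultures, and Irak4 36.4 ± 1.95 and 32.6 ± 0.581 CPM (SD, n = 3).

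Myd88 encodes the adaptor used by all these receptors and by most Toll-like receptors. It was at 64.5, 67.9 and 61.9 CPM in Veh and at 78.5, 75.7 and 68.8 CPM in GSK. The lowest GSK culture, number 3, lay just above the highest Veh culture. The log2FC of 0.20 (SE 0.061, adjusted p = 0.024) passed the adjusted p but is far under 1.5-fold. It did not pass without GSK replicate 1 (adjusted p = 0.13), Veh replicate 3 (0.10) or Veh replicate 1 (0.067). The gene lies on chromosome 9 from 119335934 to 119340018 on the minus strand, and 11.3% of its exon bases overlap Acaa1a on the other strand, so reads there are uncertain. Acaa1a itself had a log2FC of -0.06 (adjusted p = 0.64).

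**Figure D3:**
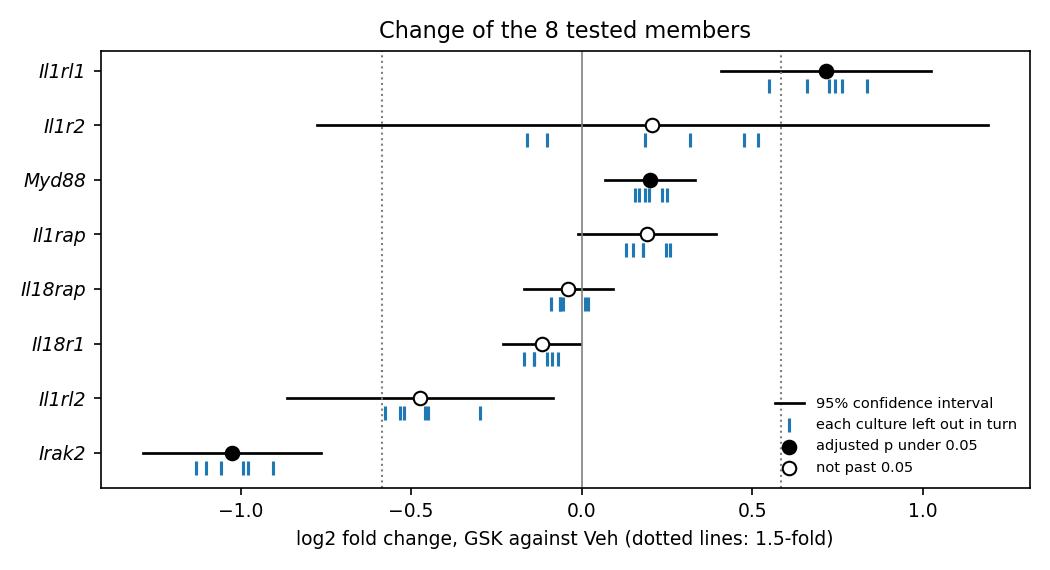
Log2 fold change of GSK against Veh for the 8 tested members, with 95% confidence intervals as lines, filled circles at an adjusted p under 0.05, and blue ticks for the values with each culture left out in turn. Irak2 lies wholly below the 1.5-fold line and Il1rl1 crosses it, while Il18r1 and Il18rap lie close to 0.

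The changes of Il1rl1 and Irak2 were not equal in the 3 GSK cultures. GSK culture 3 had the highest Il1rl1 and the lowest Irak2, and GSK culture 2 the lowest Il1rl1 and the highest Irak2. GSK cultures 2 and 3 were also the least alike pair of replicates over the tested genes. Their chi-square over its degrees of freedom was 9.39, against 4.07 to 4.82 for the other pairs. By the Pearson correlation of log2 CPM over the 6 cultures, among 9598 genes with a mean of at least 5 CPM, the genes most like Il1rl1 were Prpf19, Ipo5 and Rpn1 (r of 0.9996, 0.998 and 0.998), which act in splicing, nuclear import and protein glycosylation. The most opposite were Bmt2, Prkacb and Insr (r from -0.998 to -0.997). Most like Il18r1 were Sbf1, Ppp1r9b and Elk3 (r from 0.988 to 0.996), and most opposite Rbm14, Dhrs7b and Scfd2 (r from -0.987 to -0.980). Most like Il18rap were Pibf1, Eif2ak1 and Padi2 (r from 0.968 to 0.988), and most opposite Alg5, Dmtf1 and Pcgf3 (r from -0.978 to -0.970). These values describe 6 cultures that also carry the difference between the groups and were chosen as the most extreme of all genes compared, so they are given as a description with no test.

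The genes around the members in the pathway were described by role. Of 15 listed symbols of ligands and soluble antagonists, 7 had a row and 2 were tested. The symbols include older and newer names of the same gene, such as Il1f9 and Il36g. Il18, the cytokine for the abundant receptor, averaged 1.97 ± 0.501 CPM in the Veh cultures and 1.29 ± 0.330 CPM in the GSK cultures (SD, n = 3; log2FC -0.61, adjusted p = 0.14). Il18bp, a secreted inhibitor of IL-18, had means of 9.31 and 9.52 CPM (log2FC 0.03, adjusted p = 0.88). Il1a, Il1b, Il1rn, Il33 and Il1f9 had at most 3 reads in a culture. Sigirr, an inhibitory receptor of the family that dampens IL-1, IL-18 and IL-33 signals, was the only other receptor with a row, and it fell. Its level went from 68.6 ± 2.71 to 53.6 ± 3.05 CPM (log2FC -0.35, SE 0.059, adjusted p = 7.3e-04), less than 1.5-fold.

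Of 20 tested signal carriers below MyD88, 4 were higher and 1 was lower at the adjusted p, 25.0% against 32.1% of all genes, and 0 were called past 1.5-fold. Those higher were the ubiquitin enzyme Ube2n (log2FC 0.24, adjusted p = 0.0028), the kinase Map3k7, also called TAK1 (0.16, 0.014), the IκB kinase chain Chuk (0.25, 0.0066) and the kinase Map3k8 (0.23, 0.012). Ikbkb, the other catalytic chain of the IκB kinase, was lower (log2FC -0.23, adjusted p = 0.0082). Map3k7 did not pass without Veh replicate 2 (adjusted p = 0.054), and Map3k8 did not pass without Veh replicate 3 (0.055) or GSK replicate 1 (0.051). Traf6 (log2FC -0.07, adjusted p = 0.29), Mapk14 and Tab2 did not pass.

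Of 14 NF-κB factors and feedback genes, 5 passed (35.7%, beside 32.1% of all tested genes), of which 3 were higher and 2 lower. Nfkbiz, which encodes the IL-1-inducible cofactor IκBζ, rose from 20.9 ± 2.06 to 34.1 ± 2.14 CPM (SD, n = 3; log2FC 0.71, SE 0.086, adjusted p = 8.6e-05). Tnfaip3, which encodes the feedback inhibitor A20, fell from 50.7 ± 4.65 to 30.3 ± 2.77 CPM (log2FC -0.74, SE 0.083, adjusted p = 5.0e-05). Smaller changes were seen in Rel (log2FC 0.29, adjusted p = 0.0045), Nfkbid (0.31, 0.011) and Nfkb1 (-0.29, 8.6e-05). Without Veh replicate 3, Nfkbid did not pass (adjusted p = 0.057). Cyld, Rela, Tnip1 and Nfkb2 did not pass. Thus within this list an inducible cofactor and a feedback inhibitor moved in opposite directions, and the list's median log2FC was 0.0054. None of the 6 tested genes of cytokine processing passed, among them Casp1, the protease that matures IL-1β and IL-18 (log2FC 0.04, adjusted p = 0.95), Casp8, Pycard and Gsdmd.

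**Figure D4:**
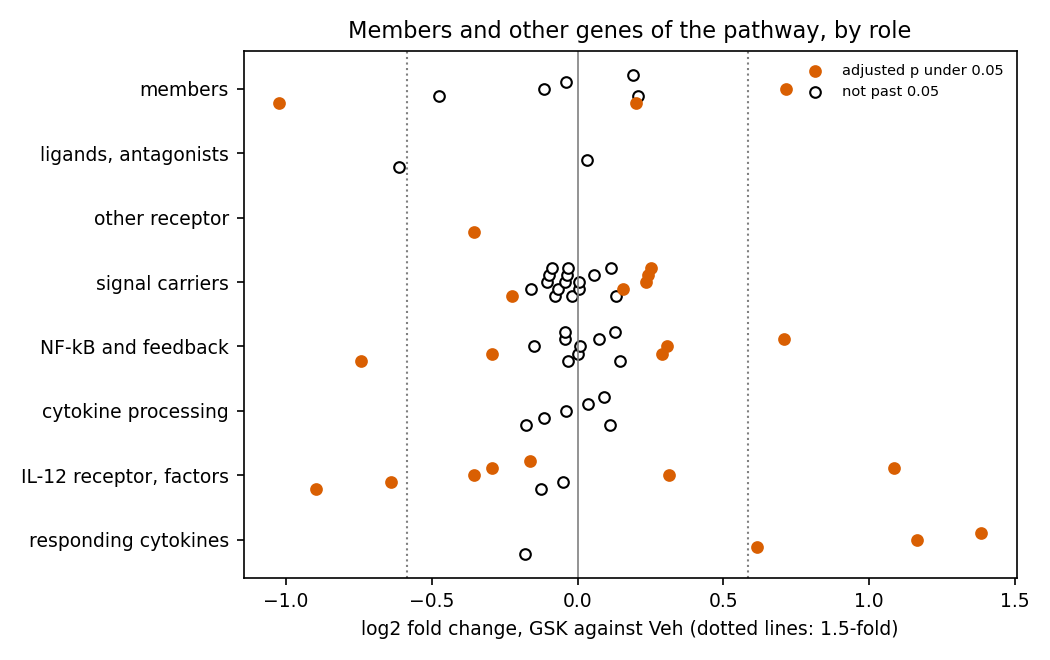
Log2 fold change of GSK against Veh for the tested members and for the tested genes of each role list, filled where the adjusted p was under 0.05, with dotted lines at 1.5-fold. The signal carriers lie within 1.5-fold of no change, while the other lists with called genes reach past the dotted lines on at least one side.

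Of 9 tested genes of the IL-12 receptor and of factors known to act at these receptor genes, 7 passed the adjusted p. That is 77.8% of this short list, beside 32.1% of all tested genes, and 2 of the 7 were higher and 5 lower. Il12rb1, a chain of the IL-12 receptor, rose by 0.31 on the log2 scale (SE 0.058, adjusted p = 0.0016), and neither Il12rb2 (log2FC -0.05, adjusted p = 0.50) nor Stat5a (-0.12, 0.14) passed. Stat4, which carries the IL-12 signal and acts at Il18r1, went from 236 ± 15.1 to 184 ± 21.6 CPM (SD, n = 3; log2FC -0.36, adjusted p = 0.011). Tbx21, which encodes T-bet, fell by 0.64 on the log2 scale (adjusted p = 4.6e-05), and Runx3 (-0.29, 0.0010) and Stat5b (-0.16, 0.018) fell by less. Eomes was called higher and had the largest change of this list, from 204 ± 9.38 to 433 ± 17.7 CPM (SD, n = 3; log2FC 1.08, adjusted p = 1.5e-08). Stat5b did not pass without Veh replicate 1 (adjusted p = 0.082) or Veh replicate 2 (0.069). Of the 9 cytokine and effector genes listed as responsive to IL-18 or IL-33, 4 were tested and 3 were called higher, against 2.22% of all tested genes. This list, like the one before it, was chosen with earlier results of these data known, so its share is only a description. Whether these genes responded to IL-18 or IL-33 was not tested. Tnf, an inflammatory cytokine, had a log2FC of 1.17 (SE 0.076, adjusted p = 6.4e-07). Ifng, which encodes interferon-γ, had a log2FC of 1.39 (SE 0.31, adjusted p = 0.014) and did not pass without GSK replicate 3 (adjusted p = 0.051). Gzmb, the cytotoxic protease granzyme B, had a log2FC of 0.62 (SE 0.12, adjusted p = 0.019), just past 1.5-fold. It did not pass without Veh replicate 1 (adjusted p = 0.067), Veh replicate 3 (0.060) or GSK replicate 1 (0.053), and without GSK replicate 3 its log2FC of 0.51 was under 1.5-fold. Csf2 did not pass (log2FC -0.18, adjusted p = 0.62). Il5, Il9 and Il13, products linked to ST2 in other lymphocytes, had at most 4 reads in a culture.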

How the data were processed

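RNA-seq counts of 3 Veh and 3 GSK samples were used. The deposited values are read counts per gene, not normalized. The authors trimmed reads with Trimmomatic, mapped them to GRCm38 with HISAT2 (2.1.0) and counted them with HTSeq (0.11.2). Libraries were stranded, but the strand setting and annotation of the counting are not given in the sources used here.

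Groups were compared in R (4.3.3) with edgeR (4.0.16), using the robust quasi-likelihood test without a block, TMM scaling, filterByExpr and adjustment over all 11698 tested genes. Standard errors and confidence intervals were derived from the test statistic. The paper names 3 separate mice and, in a legend, 3 mice per group, and whether a Veh and a GSK culture share a mouse is not stated. The main fit takes all cultures as independent, so its p-values ignore any sharing of mice. No replicates differed by as little as sampling noise (chi-square over its degrees of freedom, 4.07 to 9.39). Ratios of chains used counts plus 0.5 and needed at least 10 reads per culture. Levels per kilobase used exon unions of GENCODE M21. Motifs were searched in RefSeq promoters (GRCm38.p6), where all 10 members matched. The members, lists, markers and tests were chosen with earlier results of these data known. The named genes were all members, every listed pathway gene past the adjusted p and up to 4 more by count, 3 genes most and least like Il1rl1, Il18r1 and Il18rap, and Kdm1a. Irak4, Acaa1a, the marker genes, the untested genes and the third ratio were named after values were seen. On simulated counts (11581 genes, 200 changed 2-fold), edgeR recovered 98.5% with 8 false calls. The changed genes were drawn only from those with higher counts, so this does not cover genes with few reads or changes near 1.5-fold. Alternatives were DESeq2 (1.42.0), other scalings and filters, no robust estimation, the replicate block, a test against 1.5-fold and leaving out each sample.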

Additional observations from a re-analysis of the deposited data

How the results depend on the processing

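Il1rl1, Irak2 and Myd88 kept their direction and stayed past the adjusted p under DESeq2, RLE scaling, library totals, no filter, a filter on CPM, no robust estimation and the replicate block. When the fold itself was tested against 1.5, 0 members were called higher, so Il1rl1 was lost. Irak2 was still called lower (adjusted p = 0.029), and 69 of all tested genes were called higher. With each sample left out, the members called higher numbered 0 to 1 (0 without GSK replicate 3) and those called lower 1 to 1. At the adjusted p alone, 1 to 2 were higher, because Myd88 did not pass without Veh replicate 1, Veh replicate 3 or GSK replicate 1, and 1 to 2 were lower, because Il18r1 passed without GSK replicate 2. The cause was not tested. The log2 fold changes then ran from 0.16 to 0.25 for Myd88, from -0.17 to -0.069 for Il18r1, from -0.090 to 0.018 for Il18rap (0.011 without Veh replicate 3 and 0.018 without GSK replicate 1) and from -0.16 to 0.52 for Il1r2 (-0.10 without Veh replicate 1 and -0.16 without GSK replicate 1).

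With the replicate block the log2 fold changes were 0.71 for Il1rl1 (adjusted p = 0.0036), -1.03 for Irak2 (6.8e-04) and 0.20 for Myd88 (0.026), and the block changed no call among the members. Deviations of same-numbered samples correlated at -0.052, -0.081 and 0.16. Differently numbered samples were not compared, so these values cannot decide whether a Veh and a GSK culture share a mouse. Over all genes, 260 were called higher and 479 lower, 253 and 447 with the block, and 69 and 65 with the test against 1.5-fold. Among the other pathway genes, Map3k7, Map3k8, Nfkbid, Stat5b, Ifng and Gzmb each rose above an adjusted p of 0.05 in at least 1 fit without a sample, and so no longer passed. Casp8 (0.045, without Veh replicate 2) and Tollip (0.0496, without GSK replicate 3) came under 0.05. This check was added after the values were seen. The depth limits Il1r1, Irak3, Il1r2 and most ligands, which had few reads.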

Other observations

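Casp1 and Casp4, which encode inflammatory caspases upstream of IL-18 and IL-1β, varied more between the cultures of a group than between the group means. Casp1 was at 19.1, 28.6 and 13.4 CPM in Veh replicates 1, 2 and 3 and at 26.5, 21.1 and 15.1 CPM in GSK replicates 1, 2 and 3. Casp4 was at 8.05, 10.4 and 3.84 CPM in Veh and at 10.5, 7.54 and 3.65 CPM in GSK. For both genes replicate 3 was the lowest of its group in Veh and in GSK, whereas the highest was replicate 2 in Veh and replicate 1 in GSK. The difference between the groups did not pass for either, with adjusted p-values of 0.95 and 0.96 (edgeR) and, with the replicate block, 0.82 and 0.86. This pattern was noticed after the values were seen.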
